A study of Mus musculus with 15 samples.

Results

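Interferon-stimulated genes are described here across an ATAC-seq series on mouse CD4+ T cells, in which the Tn5 transposase cuts accessible DNA and peaks mark open chromatin. The 47 member genes were listed by name, and their regions were found by rule. Peaks of 15 libraries were merged where they overlapped by at least 1 bp, merged regions called in at least 2 libraries were kept, and each went to the nearest protein-coding gene within 100 kb. Of 83743 such regions, 153 were assigned to 44 of the 47 members. Mx1 and Mx2 are not protein-coding in the mouse gene table used and could have no region, and Oas1a was nearest to none.

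The cells were CD4+ T cells of IRF5+/+ (wild-type) or IRF5-/- (knockout) mice, either untreated (0 h) or taken after activation for 72 h in vitro. Irf5 encodes an interferon regulatory factor. Each group had 4 libraries, except for untreated knockout cells with 3, numbered 1, 3 and 4. The labels give neither strain, age, Irf5 allele nor activating agent, and do not say whether a library came from 1 animal. The p-values below therefore describe the spread among libraries, part of which may be technical.

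Type I interferon signals through the IFNAR receptor, JAK1 and TYK2, and a complex that holds STAT2 and IRF9 binds the interferon-stimulated response element (ISRE). Interferon-γ signals through its own receptor, JAK1 and JAK2, and its target genes carry the gamma-activated sequence (GAS). The induced genes encode nucleic acid sensors, proteins that block viral replication, ubiquitin-like modifiers, GTPases that attack vacuoles of intracellular pathogens, and parts of the antigen-processing machinery. In T cells many of these genes are also transcribed at a low level without infection.

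Promoter sequences were at hand for 35 of the 47 members, with 43 start sites (RefSeq, GRCm38.p6, the assembly of mm10). The stretches below are the 200 bases before a start, 5′ to 3′ on the gene's strand. They were chosen to set members with ISRE matches and different behaviour in the data beside 2 without a match. Capitals mark every match, on either strand, to the ISRE core GAAANNGAA, where adjoining matches run together.
Isg15, chr4:156200819-156201018, minus strand: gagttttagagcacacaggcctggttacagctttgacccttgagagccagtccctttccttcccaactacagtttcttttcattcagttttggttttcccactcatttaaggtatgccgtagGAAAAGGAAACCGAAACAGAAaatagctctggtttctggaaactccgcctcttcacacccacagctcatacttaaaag
Ifit1, chr19:34640689-34640888, plus strand: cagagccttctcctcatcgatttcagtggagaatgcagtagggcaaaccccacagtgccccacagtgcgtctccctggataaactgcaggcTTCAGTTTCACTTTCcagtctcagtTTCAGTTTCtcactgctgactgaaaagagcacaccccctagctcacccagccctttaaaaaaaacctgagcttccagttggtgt
Oas3, chr5:120777660-120777859, minus strand: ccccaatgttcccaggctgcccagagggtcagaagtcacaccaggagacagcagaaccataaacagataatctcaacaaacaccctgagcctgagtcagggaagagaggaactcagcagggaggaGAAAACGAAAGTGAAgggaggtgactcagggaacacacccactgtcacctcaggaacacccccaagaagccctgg
Gbp2, chr3:142620463-142620662, plus strand: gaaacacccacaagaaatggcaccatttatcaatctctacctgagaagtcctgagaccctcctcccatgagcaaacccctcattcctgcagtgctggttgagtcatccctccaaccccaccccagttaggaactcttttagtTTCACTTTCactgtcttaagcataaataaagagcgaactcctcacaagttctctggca
Gbp5, chr3:142496734-142496933, plus strand: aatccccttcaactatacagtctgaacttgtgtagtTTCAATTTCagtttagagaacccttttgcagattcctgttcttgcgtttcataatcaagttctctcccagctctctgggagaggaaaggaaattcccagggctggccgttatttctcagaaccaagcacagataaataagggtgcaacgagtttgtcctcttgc
Igtp, chr11:58199356-58199555, plus strand: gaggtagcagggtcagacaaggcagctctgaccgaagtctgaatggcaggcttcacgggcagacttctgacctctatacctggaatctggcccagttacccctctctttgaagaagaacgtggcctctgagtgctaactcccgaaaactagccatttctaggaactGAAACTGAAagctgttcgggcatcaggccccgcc
Slfn5, chr11:82951902-82952101, plus strand: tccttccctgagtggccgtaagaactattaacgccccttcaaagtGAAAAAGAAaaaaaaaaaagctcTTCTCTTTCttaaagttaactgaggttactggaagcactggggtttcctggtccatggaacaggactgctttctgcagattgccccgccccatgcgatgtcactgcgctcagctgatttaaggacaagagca
Xaf1, chr11:72301429-72301628, plus strand: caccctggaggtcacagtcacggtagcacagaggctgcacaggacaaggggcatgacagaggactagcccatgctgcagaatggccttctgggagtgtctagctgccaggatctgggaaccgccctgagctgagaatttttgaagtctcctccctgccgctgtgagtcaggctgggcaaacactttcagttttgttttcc
Ifit2, chr19:34550494-34550693, plus strand: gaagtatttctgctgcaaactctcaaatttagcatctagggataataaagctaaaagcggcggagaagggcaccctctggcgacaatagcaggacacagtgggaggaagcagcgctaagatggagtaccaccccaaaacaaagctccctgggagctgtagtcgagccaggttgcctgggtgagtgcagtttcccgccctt

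In the 300-base windows from 250 bases before to 50 after a start, GAAANNGAA was found for 24 of the 35 members (68.6%), beside 9.76% of the 27025 genes with a promoter sequence. The palindrome TTCNNNGAA, the GAS letters, was found for 11 members (31.4%, beside 9.55%). The AP-1 letters TGANTCA were found for 10 members (28.6%, beside 8.97%). All 3 were searched on both strands, and 1 of the 40 ISRE matches in member windows overlapped a GAS match. Isg15 and Ifit1 each held 3 ISRE matches, Oas3 and Slfn5 held 2, and Gbp2, Gbp5 and Igtp held 1. These are matches of letters, not bound sites.

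Libraries held 20531236 to 29000534 fragments after duplicates were removed, and each library had 29994 to 69086 peaks. The signal at a region is its highest pileup, the number of fragments stacked at the summit, per 1000000 fragments (FPM). Knockout library 3 at 0 h stood apart: its median pileup over the 21176 regions called in all 15 libraries was 1.8 FPM, beside 3.85 to 5.07 in the other 0 h libraries and 2.14 to 2.9 at 72 h. Where leaving it out ends a call of a named region or moves a called value by over 1.5 times, both values are given. Irf5 itself kept a called peak at its gene boundary (chr6:29526327-29528321) in all 7 knockout libraries, so peak presence there does not check the deletion.

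All 8 CD4 T cell marker genes had a called region in every library, at a summed pileup of 201 to 264 FPM in wild type at 0 h and 88.7 to 120 at 72 h. CD8 T cell, B cell, myeloid, natural killer and plasmacytoid dendritic cell genes also had called regions. The summed pileup of Cd8a and Cd8b1 was 5.13 to 9.5 FPM in wild type and 1.42 to 8.65 in knockout at 0 h. At 72 h this sum was 3.77 to 5.13 and 3.56 to 5.04. The summed B cell pileup was 13.3 to 16.1 FPM in wild type and 4.59 to 12.7 in knockout at 0 h, and 21.9 to 27.7 and 15.4 to 18.5 at 72 h. Of the B cell genes, Cd79b and Ms4a1 had no region, while 6 of the 26 regions of the others were gained and none was lost. Regions near Ebf1 and Pax5, transcription factors of B cells, rose by 1.81 and 1.27 (log2, relative to the library median) in wild type. The Cd79a boundary went the other way, at -0.58 in wild type and -0.42 in knockout. Myeloid sums were 20.7 to 36.0, 8.61 to 28.6, 16.7 to 22.7 and 16.4 to 17.7 in the same order. Natural killer and plasmacytoid sums were 42.4 to 51.2 and 29.4 to 41.5 in wild type at 0 h, and 24.8 to 32.0 and 27.2 to 34.4 at 72 h. The part of other cells in the activation results was not tested, and in bulk samples a change in the mix of cells and a change within each cell cannot be told apart.

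Of the 153 member regions, 56 (36.6%) were called in all 15 libraries, beside 25.3% of all regions. Near genes the shares were alike: 35 of the 55 member regions within 1 kb of a gene boundary (63.6%) were called in every library, and so were 63.2% of all such regions. At 0 h a wild-type library had a peak at 80 to 91 of the 153 member regions and a knockout library at 68 to 87, with the lowest value in library 3. At 72 h the numbers were 104 to 120 and 102 to 108. The ranges at 72 h lay above those at 0 h in both genotypes.

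More member regions were gained than lost with activation when all peaks were used. Of the 153, 23 were gained (15%, where 18.4% of all 83743 regions were) and 7 were lost (4.58%, where 4.65% were). A two-sided exact conditional test compared how many libraries had a peak at each time within genotypes, and p was adjusted by Benjamini-Hochberg over all regions, so that 0.00399 is the smallest adjusted value it can give here. The members' shares were near the background, so the list as a whole did not stand out. A gained region was found at 16 members, a lost one at 6, and both at 1 (Psmb9). Within 1 kb of a gene boundary, 8 of 55 member regions were gained and none was lost, beside 9.86% and 1.24% of all such regions. When each library was limited to its 29994 strongest peaks, 7 of 94 member regions were gained and 10 were lost, beside 14.8% and 14.1% of all regions.

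**Figure D1:**
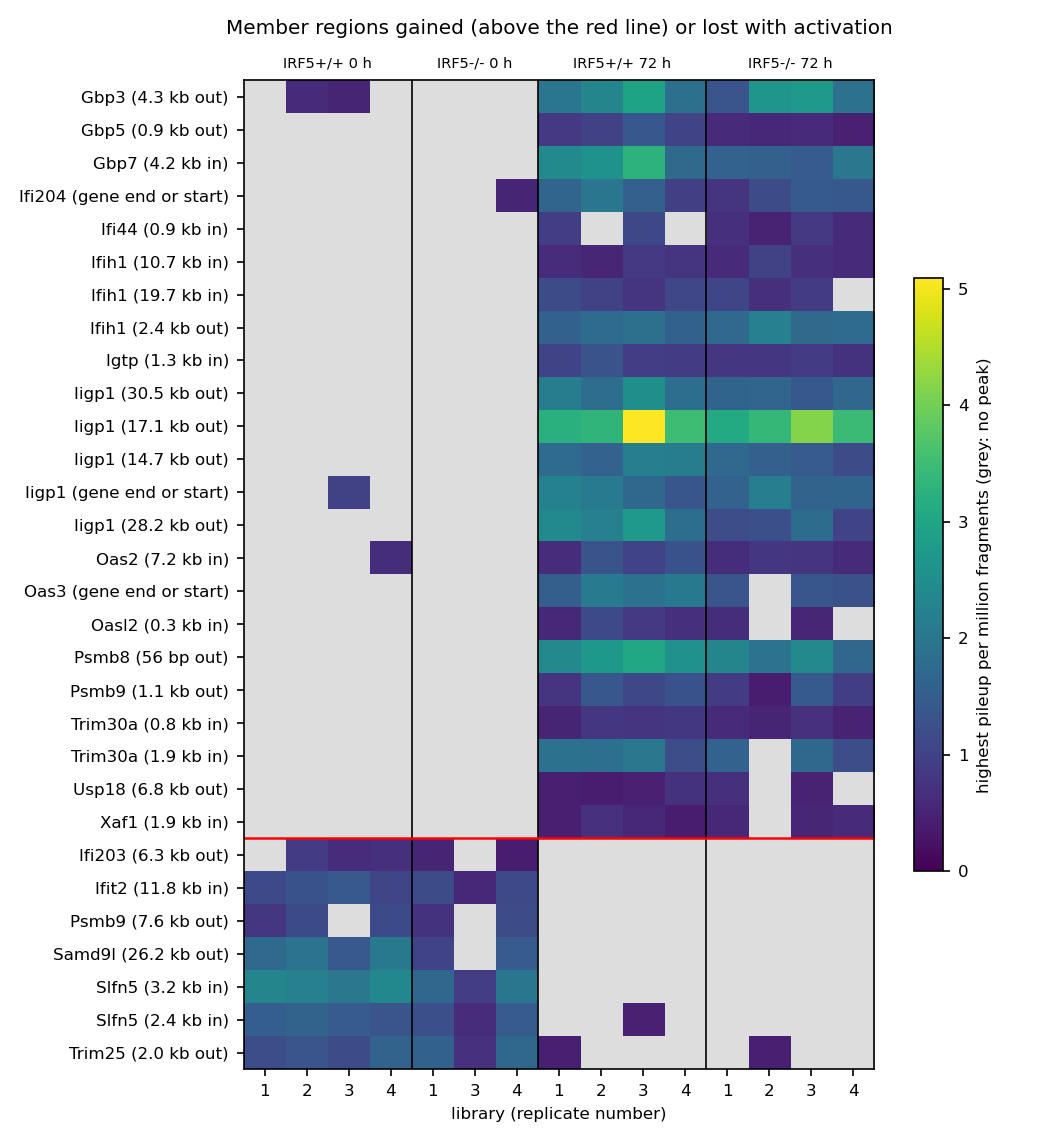
Highest pileup in FPM (colour) at the 30 member regions gained (above the red line) or lost with activation, in each of the 15 libraries (columns, by genotype and time); grey marks no called peak, and labels give the distance to the gene's boundary, inside (in) or outside (out) the gene. The 5 gained Iigp1 regions are filled in all 8 libraries at 72 h and in at most 1 at 0 h.

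Among the GTPases, 9 of 44 regions at 5 of the 7 genes were gained (20.5%, near the 18.4% of all regions) and none was lost, where 4.65% of all regions were. Iigp1 encodes an immunity-related GTPase that acts on pathogen vacuoles, and 5 of its 12 regions were gained. The region 17.1 kb outside the gene (chr18:60355782-60356515) reached 3.24, 3.34, 5.09 and 3.5 FPM in the wild-type libraries and 3.12, 3.39, 4.14 and 3.46 in the knockout libraries at 72 h. No library had a peak there at 0 h (adjusted p = 0.00399, exact test). The boundary region (chr18:60373217-60373781) had 1 peak of 1.01 FPM at 0 h and 1.36 to 2.23 in all 8 libraries at 72 h (adjusted p = 0.0121, exact test).

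Guanylate-binding proteins are large GTPases of the same defence. Gbp7 gained a region 4.2 kb inside the gene (chr3:142545339-142545953), at 2.43, 2.61, 3.29 and 1.75 FPM in wild type and 1.6, 1.57, 1.49 and 2.01 in knockout at 72 h, with no peak at 0 h. Gbp5 gained one 0.866 kb outside the gene (chr3:142523210-142525023), with 0.851 to 1.38 in wild type and 0.468 to 0.623 in knockout. Both were called in 8 of 8 libraries at 72 h and in 0 of 7 at 0 h. Gbp3 gained a region 4.32 kb away that had 2 peaks at 0 h, and that call ended when any 1 of 9 libraries was left out. Igtp, another immunity-related GTPase, gained a region 1.34 kb inside the gene, at 0.748 to 1.31 FPM in all 8 libraries.

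Sensors of foreign nucleic acid gained 6 of 29 regions (20.7%, near the 18.4% of all regions) and lost none, where 4.65% of all regions were lost. Ifih1 encodes MDA5, a sensor of long double-stranded RNA, and gained 3 of its 11 regions. The one 2.4 kb outside the gene on the side of its start (chr2:62648652-62649114) had no peak at 0 h, and at 72 h it held 1.58, 1.78, 1.88 and 1.59 FPM in wild type and 1.74, 2.22, 1.75 and 1.78 in knockout. The 2 genotypes overlapped here.

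Oas3, an oligoadenylate synthetase that makes the activator of RNase L, gained the region at its start (chr5:120777443-120777908), which holds the 2 adjoining ISRE matches printed above. It had no peak in 7 libraries at 0 h. At 72 h the pileup was 1.54, 2.07, 1.91 and 2.06 FPM in wild type, and 1.34, 1.37 and 1.26 in knockout libraries 1, 3 and 4 with no peak in library 2. The call held at an adjusted p of 0.0121 (exact test). The other Oas3 region was called in all 15 libraries, and its change is given below. The family members Oas2 and Oasl2 each gained a region as well, the first 7.24 kb from a boundary, with a peak in 8 of 8 libraries, and the second 0.308 kb from one, with a peak in 6 of 8. The Oasl2 call ended when either of 2 libraries was left out.

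In antigen processing, 2 of 7 regions were gained (28.6%) and 1 was lost (14.3%), beside 18.4% and 4.65% of all regions. Psmb8 encodes an immunoproteasome subunit, and gained a region 56 bp beyond its gene (chr17:34201510-34201989). There the pileup at 72 h was 2.39, 2.72, 3.06 and 2.57 FPM in wild type and 2.31, 1.94, 2.39 and 1.68 in knockout, with no peak at 0 h. Psmb9, a second subunit of the same particle, gained a region 1.11 kb outside the gene (chr17:34179507-34180915) at 0.404 to 1.45 FPM. It also lost one 7.57 kb away, a call that ended when any 1 of 13 libraries was left out.

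In the group of ISG15, ubiquitin ligases and PARP proteins, 3 of 27 regions were gained (11.1%) and 1 was lost (3.7%). The shares of all regions were 18.4% and 4.65%. Trim30a, a TRIM protein, gained 2, at 0.515 to 0.817 FPM (0.779 kb from a boundary, 8 of 8 libraries at 72 h) and at 1.21 to 2.03 (1.86 kb from one, 7 of 8). Usp18, which removes ISG15 and restrains the interferon receptor, gained a weak region 6.75 kb away, called in 6 of 8 libraries, and that call ended when either of 2 libraries was left out. Isg15, the ubiquitin-like modifier itself, did not pass the test: its start was called in 5 of 7 libraries at 0 h and 8 of 8 at 72 h (adjusted p = 0.445, exact test). The pileup there was 2.24 to 3.76 FPM in 3 wild-type libraries at 0 h and 3.23 to 4.02 in all 4 at 72 h.

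Of the 45 regions of antiviral effectors, the largest group, 5 were lost (11.1%, where 4.65% of all regions were) and 3 were gained (6.67%, where 18.4% were). Slfn5, a Schlafen protein, lost 2. The first (chr11:82954597-82955262, 3.25 kb inside the gene) stood at 2.32, 2.21, 2.02 and 2.38 FPM in wild type and 1.69, 0.918 and 2.0 in knockout at 0 h, and no library had a peak at 72 h (adjusted p = 0.00399, exact test). Ifit2, which binds viral RNA, lost a region 11.8 kb inside its table bounds (chr19:34562364-34562939), from 1.07 to 1.42 in wild type and 0.574 to 1.16 in knockout. These 2 regions were called in 7 of 7 libraries at 0 h and in 0 of 8 at 72 h.

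Samd9l, an interferon-induced translation inhibitor, lost a region 26.2 kb away that was called in 6 of 7 libraries at 0 h at 1.02 to 2.06 FPM. The losses at Ifi203 and, among the TRIM ligases, Trim25 ended when any 1 of 13 libraries was left out. The gains were at Ifi204, which encodes a DNA-binding HIN-200 protein (its gene boundary, 1 of 7 and 8 of 8 libraries), Xaf1 (0 of 7 and 7 of 8) and Ifi44 (0 of 7 and 6 of 8). The Ifi44 call ended when any 1 of 9 libraries was left out. Over the whole list the number lost was 4 without any 1 of wild-type libraries 2 and 4 or knockout libraries 1 and 4 at 0 h, and of wild-type libraries 2, 3 and 4 or knockout libraries 1, 3 and 4 at 72 h.

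The signal could be compared as a number at the 56 member regions called in all 15 libraries. On log2 FPM, limma called 3 of them higher and 33 lower at 72 h in wild type, and 6 higher and 19 lower in knockout. The background was as lopsided: of all 21176 regions, 5.14% were higher and 65.2% lower in wild type, and 7.57% and 39.7% in knockout. The median of all regions moved by -0.81 (log2) with activation in wild type and by -0.50 in knockout. Changes are therefore given below relative to each library's median over these regions, and rose and fell mean relative to it.

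On that scale activation raised regions of some interferon-stimulated genes and lowered those of others, in both genotypes. Of the 56 member regions, 20 rose and 15 fell in wild type, beside 29.8% and 33.3% of all regions, and 26 rose and 16 fell in knockout, beside 29.3% and 32.9%. The members' median change was 0.13 in wild type and 0.23 in knockout, and that of all regions was -0.03 and -0.04. Without knockout library 3 at 0 h, 59 member regions could be compared, of which 19 rose and 22 fell in wild type and 20 rose and 18 fell in knockout. Among the 56 regions called in every library, 34 of the 42 knockout calls remained without it, 8 were lost, and 2 other regions were then called. The 2 activation comparisons share no library. In both, 19 regions rose and 14 fell, and none was called in opposite directions. Of all regions, 63.1% were called in wild type and 62.1% in knockout. How many of them agreed is not given here, so this count does not set the members apart. All 15 and 16 regions that fell were also called lower in FPM. Of the 20 that rose in wild type, 9 were above 0 on the FPM scale and 11 below it (-0.49 to 1.0), and of the 26 in knockout 19 were above and 7 below (-0.22 to 1.43), so a rise in relative terms is often not a rise in FPM.

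The members' regions were also split by position. Of the 35 within 1 kb of a boundary, 14 rose and 7 fell in wild type, where 20.9% of all 9597 such regions rose and 36.6% fell. In knockout 17 rose and 9 fell, beside 21.6% and 36.0%. Farther away 6 of 21 rose and 8 fell in wild type, beside 37.3% and 30.6%, and 9 rose and 7 fell in knockout, beside 35.6% and 30.3%. The median change was 0.19 in wild type and 0.21 in knockout near boundaries, beside -0.11 and -0.11 for all such regions, and 0.04 and 0.29 farther away, beside 0.08 and 0.06. These shares are descriptions, since the genes were listed with earlier results of the data known.

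**Figure D2:**
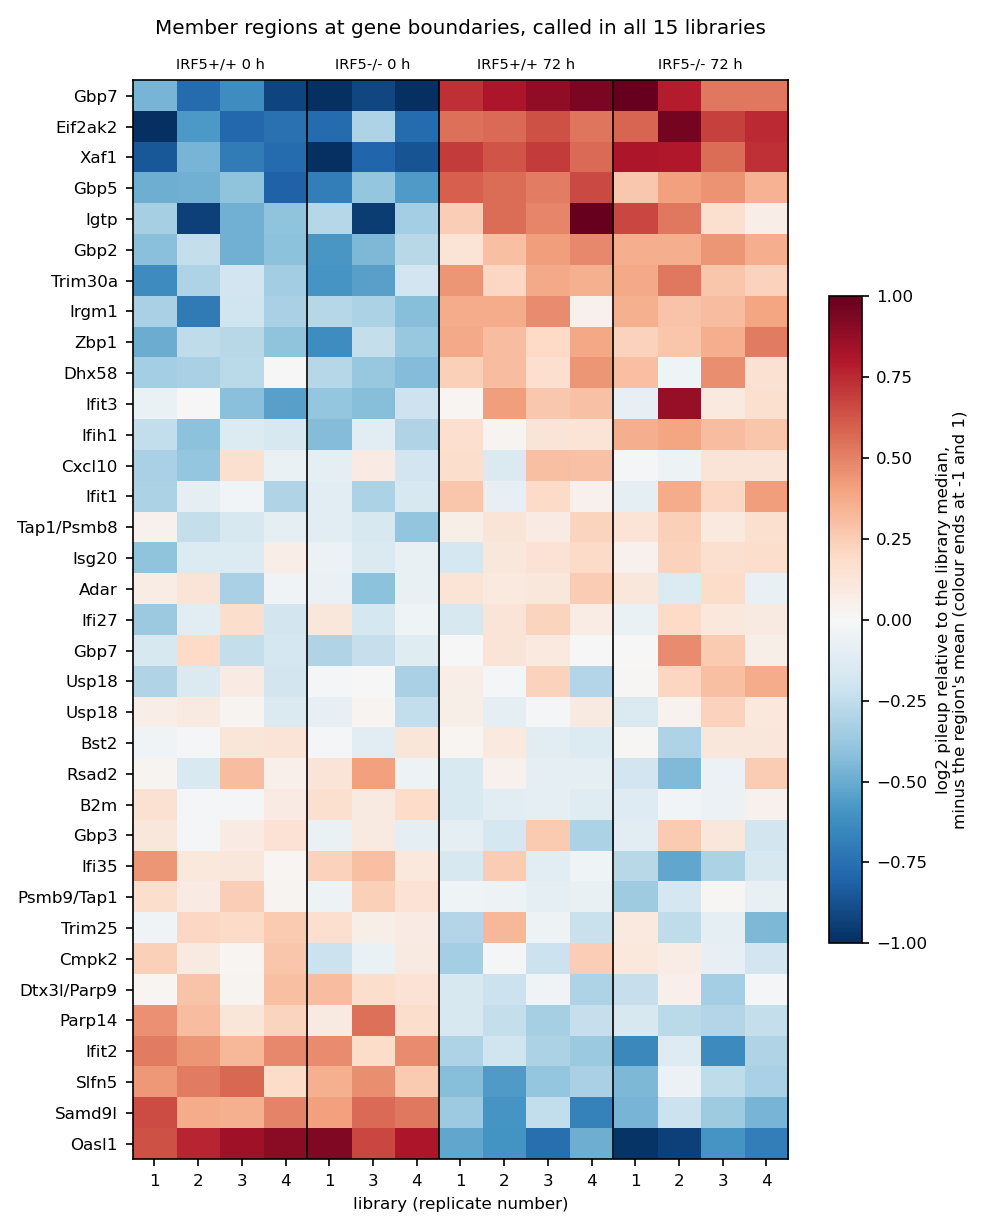
Log2 pileup relative to the library's median, minus the region's own mean (colour, ends at -1 and 1), at the 35 member regions within 1 kb of a gene boundary that were called in all 15 libraries, ordered by the change in wild type. Gbp7, Eif2ak2, Xaf1 and Gbp5 at the top turn from blue at 0 h to red at 72 h in both genotypes, and Oasl1, Samd9l, Slfn5 and Ifit2 at the bottom do the reverse.

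Of the 11 sensor regions, 6 rose and 3 fell in wild type, beside 29.8% and 33.3% of all regions. In knockout 7 rose and 3 fell, beside 29.3% and 32.9%. Eif2ak2 encodes PKR, the kinase that halts translation on double-stranded RNA. Its start region (chr17:78881553-78883219, tied with Gm26637) held 1.16, 2.17, 2.1 and 2.22 FPM in wild type and 1.66, 1.07 and 1.9 in knockout at 0 h. At 72 h it held 2.88, 3.16, 3.18 and 2.45, and 2.36, 3.27, 2.77 and 2.76. All 8 libraries at 72 h lay above all 7 at 0 h. Relative to the median it rose by 1.42 ± 0.15 (log2, SE, limma adjusted p = 1.13e-11) in wild type and by 1.35 in knockout (adjusted p = 4.71e-10).

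Zbp1, a sensor of Z-form nucleic acid that can trigger cell death, rose at its boundary by 0.67 in wild type, where it was at -0.10 on the FPM scale, and by 0.76 in knockout. It rose by 1.33 and 1.31 at a region 19.0 kb away (chr2:173186126-173187615). The Ifih1 start rose by 0.35 (limma adjusted p = 6.14e-04) and 0.62 (adjusted p = 2.88e-07). On the FPM scale its change in wild type was -0.42, with 6.29, 6.38, 8.66 and 8.71 in wild type at 0 h and 5.76, 5.7, 5.86 and 4.86 at 72 h. Dhx58, which encodes the sensor LGP2, rose by 0.52 in wild type, where it was at -0.25 on the FPM scale, and by 0.58 in knockout.

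Oasl1, which encodes an oligoadenylate synthetase-like protein, showed the largest fall of the 56 regions in either genotype. The region lies 0.616 kb outside its gene (chr5:114921694-114922527) and holds a RefSeq start, while the start listed for Oasl1 lies in no called region. That outside region stood at 4.46, 5.52, 6.55 and 6.97 FPM in wild type and 5.4, 2.1 and 5.65 in knockout at 0 h. At 72 h it stood at 1.38, 1.42, 1.23 and 1.21, and at 0.801, 0.888, 1.15 and 1.03. Every library at 72 h lay below every library at 0 h. The change was -1.38 ± 0.14 (log2, SE, limma adjusted p = 3.48e-12) relative to the median in wild type and -1.60 (adjusted p = 4.74e-13) in knockout, where it was -1.78 without knockout library 3 at 0 h. The Oas3 region 1.49 kb inside the gene (chr5:120775306-120776196) fell by 0.28 (limma adjusted p = 0.019) and 0.35 (adjusted p = 0.00672), while the region at the Oas3 start was gained. An Adar region 15.8 kb inside the gene fell by 0.44 and 0.52. Adar encodes an enzyme that edits double-stranded RNA. The region that fell holds a RefSeq start inside the gene, and the one at the gene's boundary was at 0.19 and 0.21 and did not pass.

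Among the GTPases, 7 of 13 regions rose and 2 fell in wild type, beside 29.8% and 33.3% of all regions. In knockout 8 rose and 1 fell, beside 29.3% and 32.9%. Gbp7 rose most at a region 25 bp beyond its gene (chr3:142550176-142550820), from 1.92, 1.76, 2.18 and 1.82 FPM in wild type and 0.883, 0.65 and 1.46 in knockout. At 72 h the values were 3.0, 3.45, 3.52 and 2.99, and 3.03, 2.7, 2.31 and 2.2, all above those at 0 h. The change was 1.53 ± 0.15 (limma adjusted p = 4.85e-12) and 1.90 (adjusted p = 9.05e-14). At its start Gbp7 stood at 0.15 in wild type, which did not pass, and rose by 0.41 in knockout, where it was at -0.05 on the FPM scale. A region 2.85 kb inside Gbp7 fell by 0.36 and 0.43. An Igtp region 2.74 kb outside the gene fell by 0.43 in wild type, and its -0.35 in knockout did not pass (limma adjusted p = 0.0673). Without knockout library 3 at 0 h it fell by 0.57 in knockout (limma adjusted p = 0.00796).

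The following start regions were singled out after their values were seen. At the Gbp5 start (chr3:142496175-142497884) the pileup was 4.02, 4.59, 5.42 and 4.2 FPM in wild type at 0 h and 5.88, 6.24, 5.78 and 5.29 at 72 h. In knockout it was 3.46, 1.99 and 4.29, then 3.74, 4.44, 4.65 and 4.16. The rise relative to the median was 1.13 (limma adjusted p = 1.2e-13) and 0.92 (adjusted p = 5.33e-10). The times overlapped by 1 library in wild type, where library 4 at 72 h lay below library 3 at 0 h, and also in knockout. Igtp rose at its start by 1.11 and 0.89, and the knockout value was 0.56 without library 3 at 0 h. Irgm1, an immunity-related GTPase that regulates the others, rose by 0.70 and 0.68, and was at -0.07 on the FPM scale in wild type.

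Gbp2 was the most accessible GTPase, at 7.59, 9.83, 9.3 and 10 FPM in wild type and 6.74, 3.44 and 9.45 in knockout at 0 h (chr3:142618614-142621611). At 72 h it stood at 7.7, 9.4, 9.8 and 8.4, and at 7.21, 7.75, 8.32 and 7.58. The groups overlapped, while the median of all regions fell. At -0.06 on the FPM scale in wild type, Gbp2 rose by 0.72 (limma adjusted p = 1.93e-10) and 0.82 (adjusted p = 5.34e-11) relative to it. This region was tied with Gbp2b. Iigp1 rose by 1.06 and 1.64 at a region 1.67 kb inside the gene (chr18:60375289-60376470), the only one of its 12 called in all libraries.

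**Figure D3:**
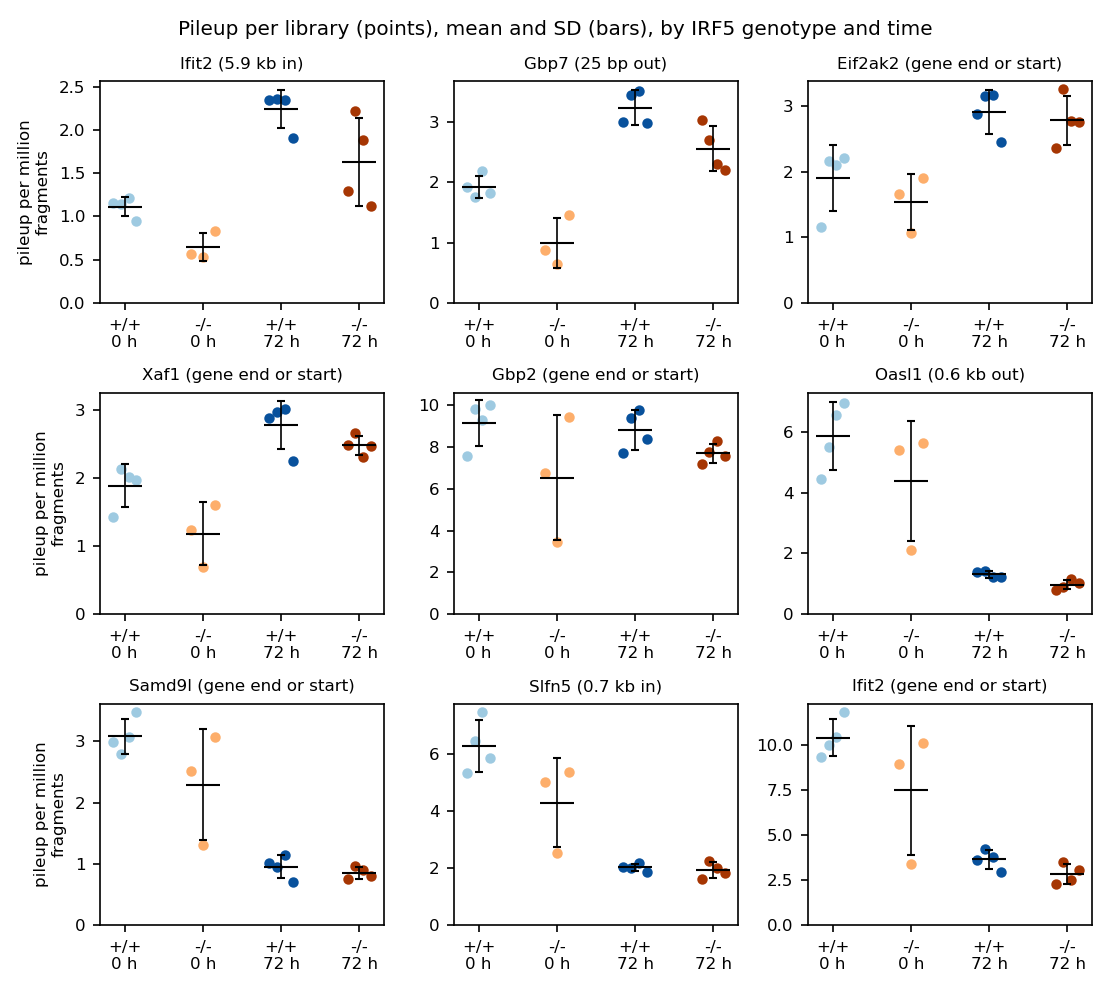
Highest pileup in FPM per library (points) with the mean and SD (bars) by IRF5 genotype and time at 9 member regions; titles give the distance to the gene's boundary, inside (in) or outside (out) the gene. The first 4 panels are higher at 72 h, Gbp2 overlaps between times, and the last 4 panels are lower. The low knockout point at 0 h in the falling panels is library 3.

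Of the 17 effector regions, 5 rose and 5 fell in wild type, near the 29.8% and 33.3% of all regions. In knockout 6 rose and 6 fell, beside 29.3% and 32.9%. Ifit2 had changes in both directions within 1 gene. A region 5.9 kb inside it (chr19:34569706-34570629) went from 1.16, 1.14, 1.21 and 0.95 FPM in wild type and 0.565, 0.536 and 0.828 in knockout to 2.35, 2.36, 2.34 and 1.91, and 1.29, 2.22, 1.88 and 1.12. Within each genotype the times did not overlap, and the change was 1.78 ± 0.2 (limma adjusted p = 7.35e-11) and 1.78 (adjusted p = 6.83e-10), the largest rise in wild type of the 56.

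The Ifit2 start (chr19:34550279-34551341) went the other way. It held 9.33, 10, 10.4 and 11.8 FPM in wild type and 8.9, 3.4 and 10.1 in knockout at 0 h, and 3.61, 4.21, 3.75 and 2.96, and 2.27, 3.51, 2.52 and 3.04 at 72 h. Relative to the median this was -0.75 (limma adjusted p = 1.64e-08) and -0.80 (adjusted p = 2.06e-08), or -1.01 in knockout without library 3. The wild-type groups lay apart, and in knockout library 3 at 0 h lay within the range of 72 h. The neighbour Ifit1, which recognises RNA lacking the host cap, rose by 0.29 and 0.42 at a start region it shares with the bounds of Ifit1bl1 and Ifit1bl2, and was at -0.49 and -0.04 on the FPM scale. The knockout call for Ifit1 was lost without library 3 at 0 h, at 0.25 (limma adjusted p = 0.0919). Ifit3, of the same family, rose by 0.51 and 0.61 at the end of its gene and was at -0.27 on the FPM scale in wild type there. The knockout call at the gene's end was lost in the same way, at 0.45 (limma adjusted p = 0.0845). The Ifit3 start region was not called in every library, so it was not in this fit.

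A region 23.9 kb inside Rtp4 rose by 0.73 (limma adjusted p = 0.00139) and 0.67 (adjusted p = 0.00656). It was at -0.05 on the FPM scale in wild type. The effectors below, from Rsad2 to Ifi35, passed in neither genotype or in knockout alone. At their starts Rsad2, which makes a chain-terminating nucleotide, stood at -0.13 and -0.27, its neighbour Cmpk2 at -0.24 and 0.05, and Bst2, which tethers budding virions, at -0.08 and -0.02. Ifi27 stood at 0.19 and 0.12. Isg20, an exonuclease, stood at 0.22 in wild type, which did not pass (limma adjusted p = 0.0536), and at 0.25 in knockout (adjusted p = 0.0459), with -0.22 on the FPM scale there. Without knockout library 3 at 0 h the Isg20 call was lost, at 0.11 (limma adjusted p = 0.467). Ifi35 stood at -0.19 in wild type, which did not pass, and fell by 0.53 in knockout.

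Xaf1, a pro-apoptotic partner of XIAP, rose at its start (chr11:72301106-72302032), which has no ISRE match in the printed stretch. The pileup was 1.43, 2.14, 2.02 and 1.98 FPM in wild type and 1.24, 0.689 and 1.61 in knockout at 0 h, and 2.88, 2.98, 3.02 and 2.26, and 2.49, 2.66, 2.31 and 2.48 at 72 h. No library at 72 h overlapped one at 0 h. The rise was 1.34 (limma adjusted p = 1.78e-11) and 1.63 (adjusted p = 6.49e-13).

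Samd9l fell at its start (chr6:3397352-3399864), from 2.99, 2.79, 3.07 and 3.48 FPM in wild type and 2.51, 1.3 and 3.07 in knockout to 1.01, 0.943, 1.15 and 0.7, and 0.757, 0.969, 0.896 and 0.795. The change was -0.94 (limma adjusted p = 1.82e-06) and -0.87 (adjusted p = 2.52e-05), with every library at 72 h below every one at 0 h. Slfn5 also fell at its start (chr11:82952004-82953260), by 0.85 and 0.63, and 3.35 kb outside the gene, by 0.86 and 0.88. With the 2 lost regions, all 4 Slfn5 regions were lower at 72 h, and the 2 ISRE matches printed above lie just before the start region.

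Of the ISG15 group's 10 regions, 1 rose and 3 fell in wild type, beside 29.8% and 33.3% of all regions. In knockout 4 rose and 3 fell, beside 29.3% and 32.9%. Trim30a rose at its start by 0.72 in wild type, where it was at -0.06 on the FPM scale, and by 0.79 in knockout. Usp18 stood at 0.14 at its boundary in wild type, which did not pass, and rose by 0.34 in knockout, where it was at -0.13 on the FPM scale. That call was lost without knockout library 3 at 0 h, at 0.28 (limma adjusted p = 0.0702). Trim25, a ligase for ISG15, stood at -0.22 and -0.28 at its start and did not pass. Without knockout library 3 at 0 h it fell by 0.41 in knockout (limma adjusted p = 0.0167). Parp14, a mono-ADP-ribosyltransferase, fell by 0.52 and 0.51 at its boundary, and the start shared by the partners Dtx3l and Parp9 fell by 0.34 and 0.35. A region 20.2 kb from Dtx3l fell by 0.70 and 1.07.

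Of the 4 antigen-processing regions, none rose and 2 fell in wild type, beside 29.8% and 33.3% of all regions. In knockout 1 rose and 3 fell, beside 29.3% and 32.9%. The start shared by Tap1, the peptide transporter, and Psmb9 (chr17:34186668-34188351) was among the most accessible of the list, at 10.2, 10.9, 13.6 and 12.0 FPM in wild type at 0 h. It fell by 0.20 and 0.26. A region 10.3 kb from Psmb9 (chr17:34170680-34171690) fell further, by 0.89 (limma adjusted p = 3.51e-06) and 0.95 (adjusted p = 4.2e-06). The region at the Psmb8 start also holds the end of Tap1, not its start. It stood at 0.24 in wild type, which did not pass, and rose by 0.38 in knockout, where it was at -0.09 on the FPM scale. The rise was not called without knockout library 3 at 0 h, at 0.29 (limma adjusted p = 0.0574). B2m, the light chain of MHC class I, stood at -0.17 in wild type, which did not pass (limma adjusted p = 0.0555), and at -0.19 in knockout (adjusted p = 0.0456), or -0.33 (adjusted p = 0.00313) without knockout library 3 at 0 h. Cxcl10, the only chemokine listed, rose by 0.31 (limma adjusted p = 0.0175) in wild type, where it was at -0.47 on the FPM scale, and its 0.12 in knockout did not pass (adjusted p = 0.41).

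Promoter letters were set beside these changes as a description. At the 19 member start regions with an ISRE match that were called in all libraries, the median change was 0.15 in wild type and 0.41 in knockout. At the 10 without one it was -0.18 and 0.04. For all promoters the medians were -0.08 and -0.06 with the match (670 regions) and -0.11 and -0.12 without it (8091 regions). The 7 member start regions with the AP-1 letters had medians of 0.70 and 0.68, and the 21 without them -0.08 and 0.05, while over all promoters the 2 classes were at -0.07 and -0.11 in wild type. A region with several starts can stand in both classes.

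**Figure D4:**
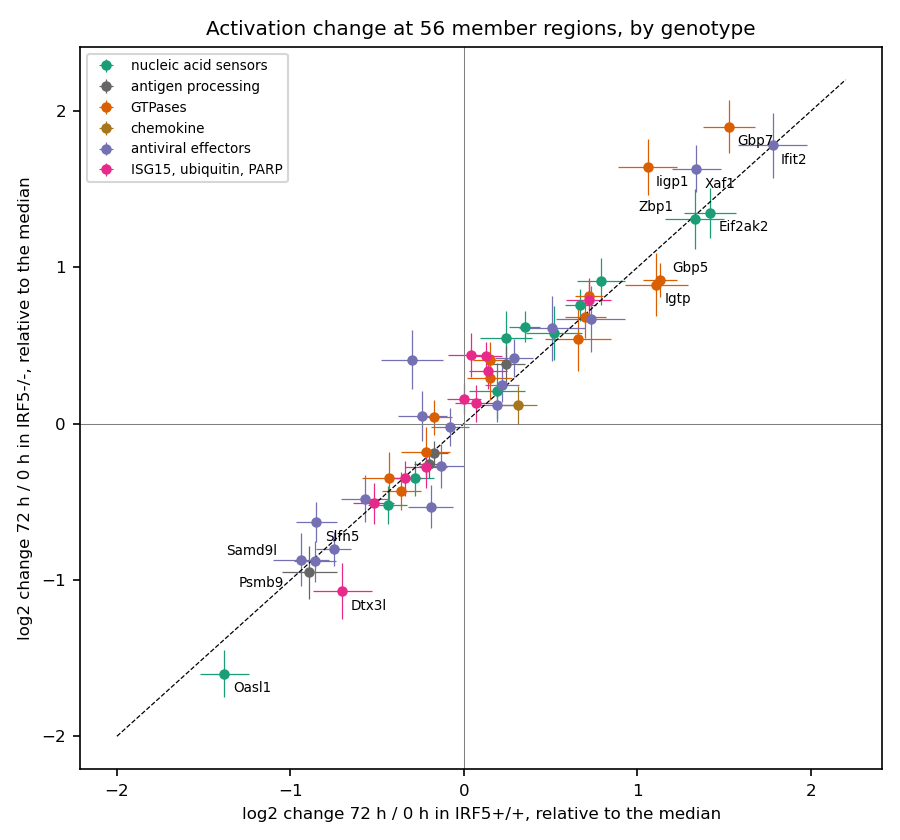
Log2 change from 0 h to 72 h relative to the median of all regions in wild type (x axis) and knockout (y axis) at the 56 member regions called in all 15 libraries, with standard errors, coloured by role; the dashed line marks equal change. Points lie along the line from Oasl1 at -1.38 and -1.60 to Ifit2 at 1.78 and 1.78.

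No member region was called between genotypes at either time. By peak presence, stratified by time, 0 of the 153 member regions and 0.0% of all regions differed (exact test), and 1 member region (0.654%) had an unadjusted p under 0.05, beside 1.39% of all. That region lies 7.47 kb from Gbp2. Among the 56 regions called in all libraries, limma called none in knockout against wild type at 0 h, at 72 h, or in the difference between the activation changes. On the FPM scale 0.0% of all regions were called in each of the 3 comparisons. Relative to the median, 0.0331% were called at 0 h, 0.94% higher and 0.264% lower at 72 h, and 0.00472% for the difference. At an unadjusted p under 0.05 there were 5, 4 and 5 member regions on the relative scale (8.93%, 7.14% and 8.93%, beside 7.91%, 14.7% and 8.76% of all regions). On the FPM scale there were 30, 1 and 2 (53.6%, 1.79% and 3.57%, beside 36.8%, 5.03% and 2.14%).

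The size of a genotype difference was bounded at these regions. Relative to the median, knockout minus wild type ran from -0.59 (Iigp1) to 0.24 (Eif2ak2) at 0 h, with a median of -0.04, and from -0.30 (Ifi35) to 0.28 (Samd9l) at 72 h, with a median of 0.02. All 56 intervals (95%) lay within 1 log2 unit of 0 at both times, and within 0.5 of it lay 41 at 0 h and 47 at 72 h. The Iigp1 region, 1.67 kb inside the gene, held 1.61, 1.45, 2.18 and 1.78 FPM in wild type and 1.02, 0.497 and 0.974 in knockout at 0 h, and 1.95, 1.74, 2.45 and 2.37, and 1.78, 1.98, 1.84 and 1.59 at 72 h. The genotypes lay apart at 0 h and overlapped at 72 h, and neither difference was called (limma adjusted p = 0.342 at 0 h). Activation changes ran further, from -1.38 to 1.78 in wild type. The difference between the activation changes was largest at Rtp4, at 0.70 (limma adjusted p = 0.412), and the intervals of all members reached from -0.86 to 1.23. No difference between genotypes was called at regions that passed in 1 genotype alone, such as those of Cxcl10, Ifi35 and Isg20.

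On the FPM scale, the values of all 56 member regions were lower in knockout at 0 h, though none was called (-1.13 to -0.30, median -0.59), as the median of all regions was (-0.52). These values moved with library 3, and without it the median was -0.19 over members and -0.13 over all regions. When knockout library 4 at 0 h was left out instead, 50 of 56 member regions were called lower, together with 81.4% of all regions. At 72 h the members' median was -0.21 and that of all regions -0.22. Leaving out knockout library 3 at 0 h gave 1 member region lower in knockout at 72 h, where 4.9% of all regions were called.

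**Figure D5:**
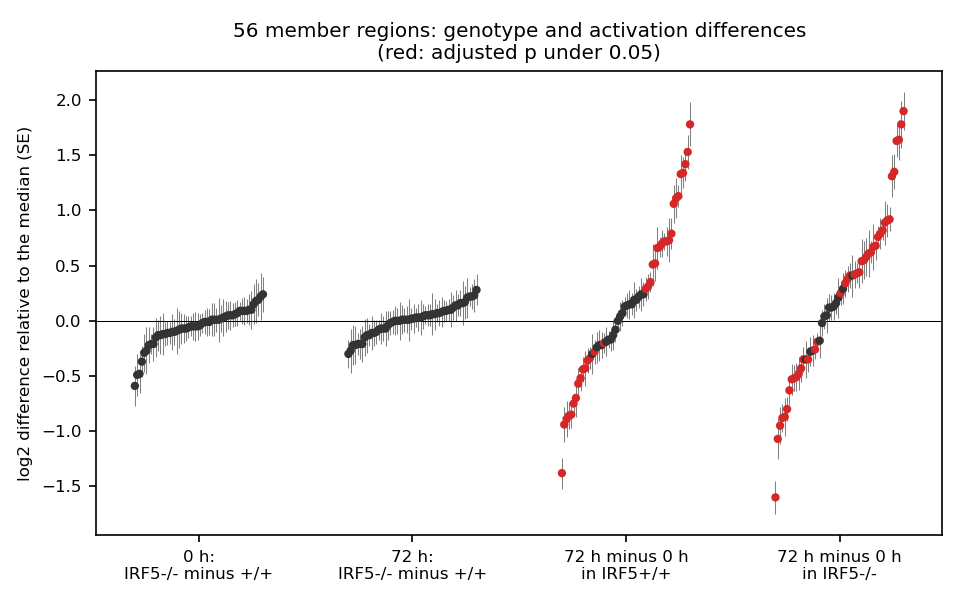
Log2 differences relative to the median with standard errors at the 56 member regions, sorted within each comparison: knockout minus wild type at 0 h and 72 h, and 72 h minus 0 h in each genotype; red marks an adjusted p under 0.05. No point is red for genotype, where values run from -0.59 to 0.28, and 35 and 42 points are red for activation.

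The signalling genes upstream of the list were counted with the same tests: the receptor chains Ifnar1, Ifnar2, Ifngr1 and Ifngr2, the kinases Jak1, Jak2 and Tyk2, and Stat2, Irf1, Irf2, Irf7, Irf9 and Socs1. These 13 genes had 147 regions, of which 17 were gained (11.6%, where 18.4% of all regions were) and 16 lost (10.9%, where 4.65% were). Of 47 called in all libraries, 7 rose and 26 fell relative to the median in wild type, beside 29.8% and 33.3% of all regions. In knockout 8 rose and 25 fell, beside 29.3% and 32.9%. Ifngr1, the ligand-binding chain of the interferon-γ receptor, fell at its boundary by 0.67 and 0.64 and at a region 13.1 kb away (chr10:19577534-19578889) by 2.83 and 2.61. Ifnar2, of the type I receptor, rose by 0.53 and 0.56, and was at -0.24 on the FPM scale in wild type.

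Stat2, a part of the ISRE-binding complex, rose at its boundary by 0.33 and 0.38 and Irf9, another part of it, by 0.37 and 0.46, and both were below 0 on the FPM scale in each genotype (-0.44 and -0.08 for Stat2, -0.40 and -0.01 for Irf9). Irf1, a factor that binds similar letters, fell by 0.51 and 0.66 at one boundary and gained a region at the other (chr11:53778245-53780509, 0 of 7 and 8 of 8). Irf7, the amplifier of the type I response, fell by 0.41 and 0.55. Of the 47 regions, 1 was called between genotypes at 72 h relative to the median, where 0.94% of all regions were higher and 0.264% lower. It lies 9.56 kb from a boundary of Jak2 (chr19:29261360-29262280) and was lower in knockout, at -0.70 (limma adjusted p = 0.015). On the FPM scale it was not called, nor was any other region, and it stood at 2.06 FPM in wild type and 1.07 in knockout on average.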

How the data were processed

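The data are ATAC-seq peak tables of 15 libraries of mouse CD4+ T cells. Per the submitters' processing notes, Trim Galore 0.5.0, Bowtie2 2.2.9, HOMER 4.10.4 and the build mm10 were used. Per the file headers, the authors called peaks in each library alone with MACS2 2.1.1.20160309, on paired fragments, with no control and a q-value limit of 0.05, keeping 1 fragment per position. The deposited tables give each peak's pileup, an unscaled number of fragments at the summit, and its -log10 q-value. Pileup was scaled to 1000000 fragments after filtering, as numbered in the same header (FPM).

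Regions, gene assignment and members are as in the results, with gene bounds from RefSeq (GRCm38.p6). A region at equal distance from several genes went to each of them, and Parp9 and Dtx3l, Psmb9 and Tap1, and Tap1 and Psmb8 share one. Genes outside the list were tied at 6 member regions. Besides those of Gbp2 and Ifit1, these were Eif2ak2 (Gm26637), Cxcl10 (Art3), B2m (Patl2) and Ifi27 (Ifi27l2a). Presence was tested at 83743 regions. At the 21176 called in all 15 libraries, log2 FPM was fitted with limma 3.58.1 (R 4.3.3; group means, trended empirical Bayes) in 5 contrasts, each adjusted by Benjamini-Hochberg over all 21176 regions, with a threshold of 0.05. The same fit on values centred on each library's median was an alternative listed beforehand, and it is the one described at length because the median of all regions moved with activation. Both methods were tested on simulated data. Tables were made with Python 3.11.15, numpy 2.4.6, pandas 2.3.3 and scipy 1.17.1.

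Regions named are those passing a test, up to 6 per role and contrast by size of change, and up to 3 boundary regions per role with the highest pileup. The boundary regions of Gbp5, Igtp, Irgm1, Trim30a, Dhx58, Ifit3, Ifi35, Isg20, Rsad2, Cmpk2 and Bst2 lie outside this rule and were picked after their values were seen. The same holds for the Rtp4 region 23.9 kb inside the gene. Members and lists were chosen with earlier results of these data known. Wild-type library 4 comes from an alignment numbered 5 at both times, per the file headers. Of the genes listed for the pathway and as cell type markers, 2 are not reported here.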

Additional observations from a re-analysis of the deposited data

Results flagged for a closer look

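In 6 of the 129 groups of 4 libraries checked, 1 library lay far from the other 3, where chance alone gives about 1 in 20. At the Eif2ak2 start, wild-type library 1 at 0 h was lowest, at 1.16 FPM, and the next was at 2.1. All 4 wild-type libraries at 0 h lay below all 4 at 72 h there. Library 4 of wild type at 72 h was lowest at the Ifih1 start, at 4.86 with the next at 5.7, and at the Ifit2 region 5.9 kb inside the gene, at 1.91 with the next at 2.34. At a region 10.3 kb from Psmb9, 1 wild-type library at 72 h was highest, at 1.15 with the next at 0.973. The B2m start was lowest in 1 knockout library at 72 h, at 4.67 with the next at 5.38. Of the member regions, 70.6% were called in 1 knockout library at 72 h, and at most 67.3% in the other 3. Untreated knockout cells, with 3 libraries, were not checked in this way.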

How the results depend on the processing

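Peak presence: gains and losses held within 1.5 times of 23 and 7 with a stricter q, genes within 20 kb, the authors' final lists, 1 gene per region, Fisher's exact test or a minimum of 4 libraries. They were 10 and 4 where peaks had to cover at least 0.5 of a region, and 7 gained with equal numbers of peaks. Leaving out 1 library gave 19 to 25 gained and 4 to 6 lost. Genotype gave 0 throughout.

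On log2 FPM, limma gave 3 higher and 33 lower with activation in wild type and 6 and 19 in knockout. Where peaks had to cover at least 0.5 of a region these were 1 and 20, and 1 and 12, among fewer regions. With equal numbers of peaks 1 and 2 were higher. With every region kept and a missing peak set to the library's lowest pileup, 30 and 28 were higher, and 2 were lower in knockout at 72 h. Centred on the median, 20 rose and 15 fell in wild type and 26 rose in knockout. Quantile normalization gave 21 and 14, and 23 and 12. Centred without knockout library 3 at 0 h, 19 and 20 rose. Leaving out 1 library gave 2 to 6 higher and 26 to 40 lower in wild type, and 5 to 7 higher and 10 to 37 lower in knockout. The 37 came without knockout library 3 at 0 h, and 10 and 12 without libraries 1 and 4. For knockout against wild type it gave 0 to 50 lower at 0 h (50 without knockout library 4) and 0 to 1 at 72 h.

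Replicate numbers did not pair the libraries: of 21 same-numbered pairs, 1 correlated above 0.1 (-0.167 to 0.228), as did 6 of 63 others. With the replicate block, 3 regions were higher and 30 lower in wild type, and 6 and 15 in knockout. Centred with the replicate block, 21 rose and 15 fell, and 26 rose in knockout.

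Several wild-type changes below 0 on the FPM scale turned to 0 or above it under another scaling, and the cause was not tested. Centred, these were Adar 0.19, Gbp5 (2.81 kb outside) 0.15, the Gbp7 start 0.15, the Usp18 boundary 0.14, Usp18 (0.996 kb away) 0.00, Ifi27 0.19 and Dtx3l (6.92 kb away) 0.04, with the replicate block the same values. By quantile normalization they were B2m 0.03, Gbp3 0.02, Gbp5 0.18, Gbp7 0.34, Usp18 0.24 and 0.16, Ifi27 0.34 and Dtx3l 0.03. Centred without knockout library 3 they were Adar 0.07, Gbp5 0.03, Gbp7 0.03, Usp18 0.02 and Ifi27 0.07. Regions without a peak in some library have no numeric value here, so a difference there could be seen only as presence.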
